A study of Homo sapiens with 9 samples.

Results

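MV4;11 cells carrying a K148Q substitution in MYC were compared with the parental MV4;11 line, 3 RNA-seq libraries against 3. These are 6 of the 9 libraries of the series, chosen by their genotype labels; the other 3 come from cells with a K148R substitution and entered only 1 alternative fit. MV4;11 is a human acute myeloid leukaemia line with a fusion of the MLL gene to AFF1 and an internal tandem duplication in FLT3. Both groups were untreated, were grown in RPMI medium and gave total RNA through the same column kit. Not given in the sources used here are how the substitution was introduced, whether the K148Q cells, which carry the code Q2 in their titles, are 1 clone, and whether the 3 libraries of a group come from separate cultures. All p-values therefore measure the spread between these libraries, and a difference set by the substitution and a difference set by the derivation of the line cannot be told apart. The counts are per gene and do not show the codon, so they do not check the genotype.

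MYC is a transcription factor that pairs with MAX, binds the sequence CACGTG (the E-box) in promoters and enhancers, and recruits acetyltransferases and elongation factors. It is known for raising genes of ribosome production, metabolism and division; in blood it is high in dividing progenitors and low in mature myeloid cells, and MXD and MNT proteins compete with it for MAX. A lysine can be acetylated, and glutamine, which has no positive charge, is often put in its place to stand for the acetylated form.

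The K148Q and parental cells differed widely. Of 12325 genes tested with edgeR's quasi-likelihood test (called at a Benjamini-Hochberg adjusted p under 0.05, written adjusted p throughout), 6460 were called, a background of 52.4%. Of these, 3457 were higher in K148Q cells, 28% of tested genes, and 3003 were lower, 24.4%. At least 2-fold changes numbered 1344 (10.9%), with 575 higher (4.67%) and 769 lower (6.24%). The excess of falls grew with size: 162 genes rose and 297 fell at least 4-fold, 63 rose and 155 fell at least 8-fold, and 16 rose and 56 fell at least 32-fold. The median log2 fold change of all tested genes was 0.01 and the median absolute value was 0.30, so most differences were small. Large changes were more frequent among genes of low level: 27.6% of genes at 1 to 10 CPM (counts scaled to library size) in the higher group changed at least 2-fold, against 6.54% at 10 to 100 CPM and 3.53% above 100 CPM. The excess of falls of at least 2-fold was absent under a filter at 10 CPM, which removes genes of low level. In 7540 tested genes (61.2%) the libraries of the groups did not overlap. Long intergenic RNAs leaned down, with 15 of 133 higher and 44 of 133 lower.

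**Figure D1:**
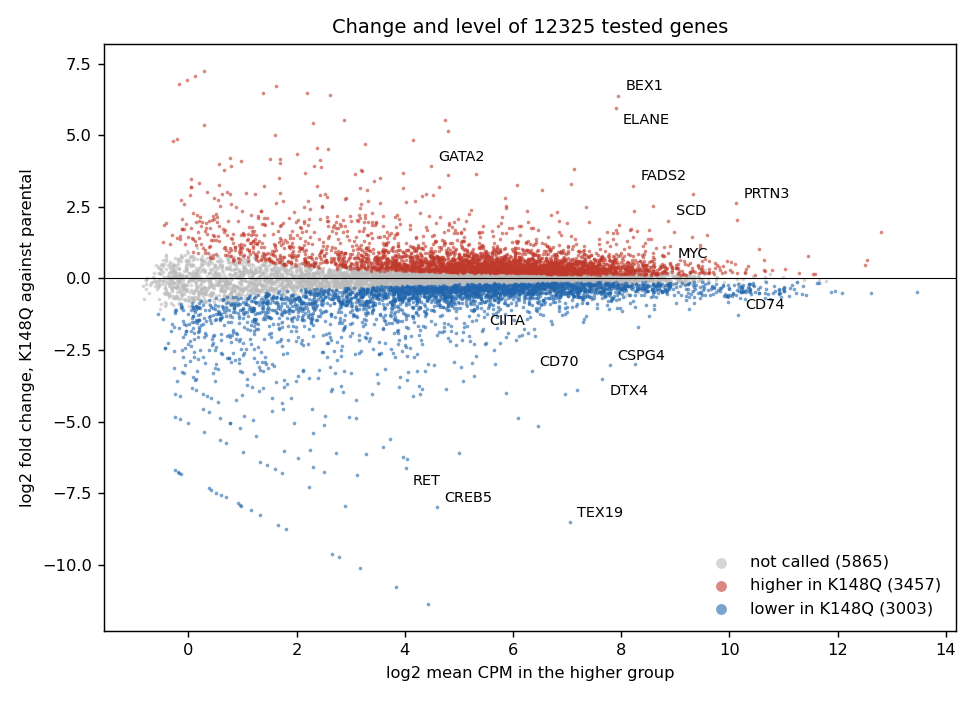
Log2 fold change of K148Q against parental cells (y axis) against the log2 mean CPM of the higher group (x axis) for each of 12325 tested genes; red points were called higher, blue points lower and grey points not called. The widest falls reach further than the widest rises, and the diagonal row of blue points at the lower left holds genes with no or almost no count in K148Q cells, whose fitted value depends on the prior count.

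Library totals ran from 13747087 to 16636974 counts in the parental group and from 14477839 to 15708821 in the K148Q group. K148Q replicate 3 stood apart from its group: the chi-square per degree of freedom between its counts and those of K148Q replicates 1 and 2 was 16.9 and 17.4, against 1.33 between replicates 1 and 2 and 1.52 to 1.60 among the parental libraries. Its deviations from the mean of K148Q replicates 1 and 2 followed the GC content of genes (Spearman −0.75 across genes). The same measure was 0.60 and 0.61 in replicates 1 and 2, each set against a mean that includes replicate 3. Without it 9029 genes were called, of which 4546 were lower, and 6395 of the 6460 calls were kept. Beside the calls of each gene list, brackets give the median log2 fold change of its tested members, the counts of members higher and lower without that library, and any count that leaving out another library moved by over 1.5 times. Markers of the cell line were present: 13 of 13 leukocyte and myeloid markers were tested, with a summed level of 2002 to 2024 CPM in parental and 3008 to 3057 CPM in K148Q libraries. In bulk RNA, fewer cells of a type and less RNA per cell cannot be told apart. Unless stated otherwise, a pair of values is the mean CPM in parental and then in K148Q cells, ± is the SD over 3 libraries, and every gene said to rise or fall passed the test.

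MYC itself (chr8:127735434-127741434, GRCh38) rose. It stood at 337, 332 and 339.6 CPM in the parental libraries and at 493, 495 and 454 CPM in the K148Q libraries. All K148Q libraries were above all parental ones, with replicate 3 the lowest of its group. The means were 336 ± 4.05 and 481 ± 23.4 CPM, a log2 fold change of 0.52 (SE 0.0495, adjusted p = 3.3e-05). Of 19 tested genes of the MYC network, 9 rose and 2 fell (median 0.21; 13 and 3 without K148Q replicate 3). MAX, the shared partner, rose from 81.4 to 101 CPM and its relative MLX from 78.8 to 95.3 CPM. Among the antagonists, MNT rose from 23.5 to 31.7 CPM (log2 fold change 0.43), MGA from 137 to 154 CPM (0.17) and MXD1 from 10.3 to 17.2 CPM (0.74, adjusted p = 0.0021), while MXD3, MXD4 and MXI1 were not called. The call of MGA was lost without any 1 of parental replicates 2 and 3 and K148Q replicates 1 and 2 (log2 fold change 0.14 to 0.16). The largest change of the network was MLXIPL, a glucose-responsive partner of MLX, at 3.47 to 10.4 CPM (1.58, adjusted p = 4.3e-05). MYCL, a paralog of MYC, fell from 9.26 to 4.99 CPM (−0.89), and SKP2, a subunit of a ligase that marks MYC for turnover, fell from 86.3 to 65.8 CPM (−0.39).

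The genes with the largest rises were low or near silence in the parental line. BEX1 (chrX:103062651-103064240), a small X-linked adaptor protein, was at 2.72, 3.36 and 2.83 CPM in parental and 239, 242 and 259 CPM in K148Q libraries. Its fold change of 83.2 (log2 6.38, SE 0.0902, adjusted p = 4.3e-10) was the largest among called genes that reached 10 CPM, and the groups were far apart. ELANE (chr19:851014-856247), neutrophil elastase, was at 3.39, 3.57 and 4.57 and 248, 258 and 211 CPM (5.95, SE 0.128, adjusted p = 4.8e-09). Next came PPP1R3A, a glycogen-targeting subunit of protein phosphatase 1 (0.556 to 26.8 CPM, log2 5.53), ADGRL3, an adhesion receptor (0.766 to 27.7 CPM, 5.16), and STON1, an endocytic adaptor (0.601 to 17.8 CPM, 4.83). The blood transcription factor GATA2 and the granule protease CTSG followed and are described with their groups. CCL2, a chemokine for monocytes, rose from 1.19 to 15.6 CPM (3.69), and BCL2L10, a BCL2 family member, from 3.16 ± 0.143 to 39.96 ± 2.76 CPM (3.66, adjusted p = 2.7e-08). IGF1, insulin-like growth factor 1, rose from 2.299 to 27.9 CPM (3.603), SLC46A1, the proton-coupled folate transporter, from 1.04 to 11.7 CPM (3.49) and MYEF2, a transcriptional repressor, from 1.01 to 10.8 CPM (3.39).

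The largest falls ended at or near 0 counts. GLB1L2 (chr11:134331874-134378341), a relative of beta-galactosidase, was at 19.9, 22.2 and 22.6 CPM in parental libraries (1009 counts in all) and had no count in any K148Q library. Against a floor of 3 counts over the group it was at least 326-fold lower. AGK (chr7:141551189-141655244), a mitochondrial lipid kinase that also serves protein import, was at 13.8, 15.2 and 13.9 CPM (667 counts) and likewise had no K148Q count, at least 216-fold lower. KCNA3, a voltage-gated potassium channel (9.06 CPM in parental cells), KIAA0125, a long intergenic RNA (6.89 CPM), and GSPT2, a translation termination factor (6.304 CPM), were also at 0 in the 3 K148Q libraries, at least 137-fold, 104-fold and 95.2-fold lower. No tested gene with at least 5 CPM in K148Q cells was at 0 in all parental libraries.

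The tested genes next to these 5 showed smaller differences, apart from MAGED1. KIAA1147, which starts 1.48 kb after AGK, fell from 104 to 37.04 CPM (log2 fold change −1.49), whereas MRPS33, on the other side at a distance of 536 kb, was at 55.1 and 53.2 CPM and not called. MAGED1, 56.8 kb after GSPT2, went from 1.43 CPM to 0, and CCNB3, on the other side, rose from 1.59 to 2.43 CPM, a call that was lost without parental replicate 1 or 3 or K148Q replicate 1 or 2 (log2 fold change 0.497 to 0.64). ACAD8, 66.0 kb before GLB1L2, fell from 30.5 to 23.8 CPM (−0.36), and CD53, 196 kb after KCNA3, fell from 153 to 97.8 CPM (−0.64). LAMTOR5, on the other side of KCNA3, was not called (−0.23). TMEM121, 388 kb before KIAA0125, fell from 1.71 to 0.928 CPM (−0.89).

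Other genes fell to traces. TEX19 (chr17:82359247-82363776), a germ cell gene, was at 132, 134 and 132 CPM in parental and 0.263, 0.345 and 0.449 CPM in K148Q libraries (log2 fold change −8.52, SE 0.121, adjusted p = 4.3e-10). RET, a receptor tyrosine kinase, was at 15.3, 17.1 and 16.1 and 0.0658, 0.276 and 0.128 CPM (−6.64, adjusted p = 9.5e-08). HSH2D, an adaptor protein of blood cells, was at 90.1, 87.97 and 86.3 and 2.63, 3.04 and 1.795 CPM (−5.15, adjusted p = 1.4e-08). The groups did not overlap in any of the 3, and the K148Q libraries, at low counts, differed among themselves by more than the parental ones in relative terms. IGLL1, a part of the surrogate light chain of B cell precursors, fell from 67.9 ± 2.18 to 2.32 ± 0.327 CPM (−4.87). CREB5, a transcription factor of the CREB family, fell from 24.3 CPM to 4 counts over the group (−7.98). COL27A1, a fibrillar collagen, fell from 31.99 to 0.461 CPM (−6.09), FAM69C from 15.7 to 0.201 CPM (−6.24), ATP6V0E2, a subunit of the vacuolar proton pump, from 12.2 to 0.19996 CPM (−5.88) and PALM, a membrane-linked phosphoprotein, from 13.2 to 0.266 CPM (−5.59).

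Among genes of at least 200 CPM, the rises beyond BEX1 and ELANE were led by desaturases and granule genes. FADS2, the delta-6 fatty acid desaturase, was at 33.3, 31.1 and 30.5 CPM in parental and 308, 315 and 273 CPM in K148Q libraries (3.24, adjusted p = 8.0e-09), and PLD3, a lysosomal nuclease, at 79.6, 82.1 and 86.7 and 677, 673 and 564 CPM (2.95). FADS1 lies within the span of FADS2 on the opposite strand, and no source used here states the strand setting of the counts, so the split of reads between them is uncertain. CHI3L1, a secreted chitinase-like protein of macrophages, rose from 276 to 1123 CPM (2.02), and EPB41L3, a membrane skeleton protein, from 68.9 to 250.3 CPM (1.86). The widest fall of an abundant gene was DTX4, a ubiquitin ligase of the Notch pathway, from 201 to 17.7 CPM (−3.502, adjusted p = 4.3e-09); it overlaps MPEG1, so its reads are uncertain in the same way. CSPG4, the proteoglycan NG2 that marks MLL-rearranged blasts, was at 214, 225 and 226 and 28.4, 29.3 and 24.3 CPM (−3.02, adjusted p = 1.4e-08), about level within each group and far apart between them. LSP1, an actin-binding protein of leukocytes, fell from 306 to 38.8 CPM (−2.98), ZNF217 from 366 to 147.5 CPM (−1.31), PRDX1, a peroxidase, from 609 to 291 CPM (−1.06) and ETS2, a transcription factor, from 218 to 104 CPM (−1.06). SEL1L3 fell from 257 to 116 CPM and HOOK3, a linker of dynein to cargo, from 388 to 184 CPM.

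Genes of the azurophil granule, the first granule that neutrophil precursors make, and of these precursors rose as a group. The list is wider than the granule and includes MS4A3, P4HB, RNASE2 and RNASE3. Of 15 tested members 13 rose and 2 fell, with a median log2 fold change of 1.502 against 0.01 for all tested genes, and the counts were the same without K148Q replicate 3. CTSG, cathepsin G, was at 9.81, 10.4 and 9.93 CPM in parental and 146, 144 and 131 CPM in K148Q libraries (3.81, SE 0.0779, adjusted p = 4.3e-09). PRTN3, proteinase 3, was at 173, 183 and 182 and 1145, 1178 and 1014 CPM (2.63, SE 0.0646, adjusted p = 1.1e-08), and MS4A3, a membrane protein of granulocyte and monocyte precursors, at 59.2, 58.8 and 58.8 and 283, 289 and 331 CPM (2.35). The K148Q libraries lay above the parental libraries in each of these, with replicate 3 the lowest of its group for both proteases and the highest for MS4A3. AZU1, azurocidin, named here after its values were seen because it lies beside PRTN3 and ELANE on chromosome 19, was at 269, 272 and 274 and 824, 805 and 679 CPM (1.502). BPI, a granule protein that binds bacterial lipopolysaccharide, rose from 0.936 to 5.53 CPM (2.55). The members that fell were MPO, myeloperoxidase, at 7.02, 8.32 and 7.404 and 3.82, 4.42 and 3.65 CPM (−0.93, adjusted p = 3.8e-04), and CST7, a protease inhibitor, at 17.6 to 8.87 CPM (−0.99). MPO, the usual defining protein of this granule, was thus low in both groups and lower in K148Q cells.

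Promoters of the granule and precursor list were searched for TTGCNNAA or its reverse complement, a short form of the site bound by C/EBP factors. The window ran from 250 bases before to 50 bases after the start. In it 5 of 9 list members with 1 RefSeq promoter (GRCh38.p14) held the site, against 6.66% of 6986 tested genes. These 5 were PRTN3, AZU1, MS4A3, RNASE2 and RNASE3. The match in PRTN3 reads on the reverse strand of the motif. The 150 bases before the start are shown for PRTN3 and MS4A3, the members with a match that rose by the largest factors, with the match in capitals, at chr19:840849-840998 (plus strand) for PRTN3 and chr11:60056515-60056664 (plus strand) for MS4A3.
PRTN3: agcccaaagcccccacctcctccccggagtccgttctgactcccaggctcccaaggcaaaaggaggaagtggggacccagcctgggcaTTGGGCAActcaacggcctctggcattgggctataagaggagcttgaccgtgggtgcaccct
MS4A3: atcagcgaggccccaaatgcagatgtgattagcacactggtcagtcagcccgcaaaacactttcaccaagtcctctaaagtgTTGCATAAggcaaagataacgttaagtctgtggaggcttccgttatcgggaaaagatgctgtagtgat
The match starts 62 bases before the start in PRTN3 and 68 bases before it in MS4A3. These letters are a description of the sequence and not evidence of binding.

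Myeloid transcription factors moved in both directions. Of 23 tested factors of myeloid differentiation 10 rose and 5 fell (median 0.14; 11 and 7 without K148Q replicate 3). CEBPB, a C/EBP factor of maturing and stimulated myeloid cells, rose from 17.9 to 49.8 CPM (1.48, adjusted p = 7.2e-07), CEBPD from 14.5 to 27.4 CPM (0.92) and CEBPA, the factor that starts the granulocyte program, from 276 to 386 CPM (0.48). SPI1, which encodes the master factor PU.1, rose from 157 to 257 CPM (0.71). GFI1, a repressor that favours granulocytes, was at 135, 134 and 131 CPM in parental and 286, 283 and 281 CPM in K148Q libraries (1.09, adjusted p = 2.9e-07). IRF8, which favours monocytes and dendritic cells, was at 619, 648 and 653 and 477, 468 and 470.5 CPM (−0.44, adjusted p = 3.5e-05). The groups did not overlap for either, GFI1 being higher and IRF8 lower in K148Q cells. ID1, an inhibitor of helix-loop-helix factors, rose from 1.504 to 9.14 CPM (2.59), the vitamin D receptor VDR from 32.95 to 59.4 CPM (0.85) and the retinoic acid receptor RARA from 83.7 to 147 CPM (0.81), while its partner RXRA fell from 239 to 203 CPM (−0.24). IRF4 fell from 64.5 to 45.6 CPM (−0.500), BATF3 from 3.24 to 1.56 CPM, and CEBPE, a factor of late granule genes, was low and not called at 1.64 and 1.33 CPM.

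GATA2 and NFE2 had the largest rises among the stem and progenitor factors. GATA2 (chr3:128479427-128493185), a factor of stem cells and mast cells, was at 1.997, 0.948 and 1.38 CPM in parental and 21.9, 24.1 and 21.3 CPM in K148Q libraries (3.92, SE 0.181, adjusted p = 4.2e-07). NFE2, a factor of the erythroid and megakaryocyte lineages, was at 12.5, 13.1 and 12.4 and 56.5, 57.3 and 53.02 CPM (2.14, adjusted p = 1.1e-07). Both were near uniform within the K148Q group and did not overlap the parental group. Over the list, 9 of 17 tested factors rose and 2 fell (median 0.23; 10 and 4 without K148Q replicate 3, 1 lower without parental replicate 3). ZFPM1, a GATA partner, rose from 6.23 to 12.5 CPM, LMO4 from 19.7 to 36.8 CPM and HHEX from 18.4 to 29.5 CPM, and MYB, a factor of dividing progenitors, from 507 to 567 CPM (0.16), a call that was lost without any 1 of the parental libraries or K148Q replicate 1 (0.16 in each). TCF4, an E protein of dendritic and lymphoid cells, fell from 19.98 to 4.12 CPM (−2.27, adjusted p = 6.1e-07). LMO2 was at 226 and 226 CPM and RUNX3 at 126 and 133 CPM, neither called. GATA2 is also a marker of mast cells and basophils, and 3 of 4 tested markers of these cells rose, GATA2, KIT and PRG2 (0.553 to 2.44 CPM). The sum of the list was 31.1 to 40.6 CPM in parental and 99.2 to 107 CPM in K148Q libraries. Nearly all of it was KIT (32.4 and 75.8 CPM) and GATA2 itself (1.44 and 22.4 CPM). CPA3, HDC, HPGDS and CLC had no count in any library. The part of such cells in the GATA2 result was not tested.

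Targets of the MLL fusion moved in both directions and fell more often than they rose. The background over all tested genes was 52.4% called, 28% higher and 24.4% lower, with a median log2 fold change of 0.01. Of 22 tested targets 3 rose and 8 fell (median −0.01; 5 and 12 without K148Q replicate 3). MEF2C, a factor of myeloid leukaemia and lymphoid progenitors, was at 159.6, 164 and 164 CPM in parental and 59.7, 62.1 and 75.3 CPM in K148Q libraries (−1.31, adjusted p = 3.3e-06), all K148Q values being below all parental ones. MEIS1, the homeobox partner of the HOXA proteins, fell from 76.4 to 53.7 CPM (−0.51, adjusted p = 3.3e-04), HOXA10 from 96.99 to 79.5 CPM (−0.29) and HOXA11 from 16.9 to 11.5 CPM (−0.56). JMJD1C, a chromatin factor, fell from 139 to 90.6 CPM (−0.62) and BCL2, the apoptosis inhibitor, from 247 to 179 CPM (−0.46). DOT1L, the histone methyltransferase that MLL fusions depend on, rose from 158 to 195 CPM (0.303). Beside MEF2C the falls of at least 2-fold were in genes of low level, named after their values were seen. HOXA5 fell from 1.68 to 0.418 CPM (−1.97) and HOXA13 from 1.702 to 0.0433 CPM (−5.04). On the other side, 1 target that is not named here rose at least 2-fold. HOXA9 (7.33 and 8.19 CPM), PBX3 (85.7 and 88.6 CPM) and FLT3 (657 and 688 CPM, adjusted p = 0.29) were not called.

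**Figure D2:**
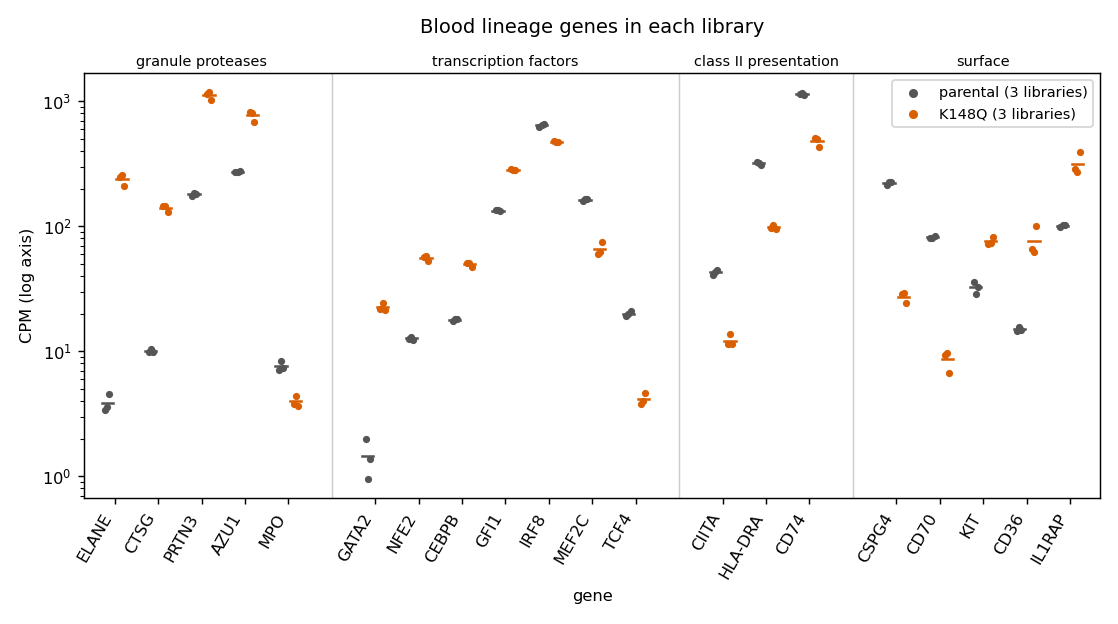
CPM on a log axis (y) of blood lineage genes (x) in each of 3 parental libraries (grey points) and 3 K148Q libraries (orange points); short lines are group means. GATA2 and ELANE lie more than 10-fold apart between groups, CIITA, HLA-DRA and CD74 are lower in every K148Q library, and MPO goes against the other granule genes.

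The antigen presentation genes of class II fell together. Class II proteins show peptides to T cells; their genes share promoter elements bound by RFX and NFY factors and need the coactivator CIITA. Of 21 tested genes of this list 2 rose and 14 fell, 9 of them at least 2-fold (median −0.68; 2 and 17 without K148Q replicate 3, 1 higher without parental replicate 1 or 3 or K148Q replicate 2, 0 higher without K148Q replicate 1). CIITA was at 40.98, 42.8 and 44.7 CPM in parental and 11.3, 13.7 and 11.4 CPM in K148Q libraries (−1.82, adjusted p = 9.0e-07). HLA-DRA, the shared alpha chain, was at 324, 318 and 310.3 and 96.7, 102 and 94.7 CPM (−1.698), and CD74, the invariant chain, at 1151, 1153 and 1119 and 503, 497 and 427 CPM (−1.26, adjusted p = 6.8e-07). None of these 3 genes overlapped between groups, and HLA-DRA and CIITA changed by more than CD74. HLA-DPA1 fell from 43.8 to 12.8 CPM (−1.77), HLA-DPB1 from 12.1 to 4.77 CPM (−1.35) and HLA-DRB1 from 106 to 34.8 CPM (−1.603), the last being uncertain because reads may be shared with its near copy HLA-DRB5. The regulators, named after their values were seen, changed less: RFXAP fell from 16.9 to 10.5 CPM (−0.68), RFX5 from 124 to 112 CPM (−0.15, adjusted p = 0.038), and RFXANK rose from 73.4 to 89.8 CPM (0.29). The RFX5 call was lost without any 1 of the libraries other than K148Q replicate 3 (−0.14 to −0.18), and the RFXANK call without K148Q replicate 1 (0.23). The B cell markers tested fell in 4 of 5 members, with a sum of 70.8 to 75.6 CPM in parental and 6.83 to 8.75 CPM in K148Q libraries, most of the parental sum being IGLL1, while the defining genes MS4A1, EBF1 and VPREB1 had no count in any library; the part of such cells in the class II result was not tested.

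The CCAAT box bound by NFY (CCAAT or ATTGG) was found in 11 of 13 class II list promoters in the same window, against 38.4% of 6986 tested genes. The 11 include NFYA and IFI30. The box was not particular to this list. It was about as frequent in lists that leaned up, in 16 of 19 promoters of the unfolded protein response and 10 of 13 of cholesterol synthesis. The 150 bases before the start of CD74 (chr5:150412911-150413060, minus strand) and HLA-DRB1 (chr6:32589849-32589998, minus strand) are shown with the match in capitals, 53 and 46 bases before the start, because these members fell and hold the element near the same place.
CD74: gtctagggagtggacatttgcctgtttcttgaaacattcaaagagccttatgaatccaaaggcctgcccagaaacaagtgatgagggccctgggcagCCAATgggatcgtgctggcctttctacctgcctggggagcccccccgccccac
HLA-DRB1: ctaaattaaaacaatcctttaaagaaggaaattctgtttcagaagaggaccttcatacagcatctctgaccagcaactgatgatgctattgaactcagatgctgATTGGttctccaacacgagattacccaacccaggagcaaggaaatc
Both sequences are reference promoters, written 5′ to 3′ along the gene. The match is in the forward letters in CD74 and in the reverse complement in HLA-DRB1. The NFY subunits, named after their values were seen, changed by less than the presentation genes, NFYA at 109 and 89.9 CPM (lower, log2 fold change −0.28) and NFYB at 44.4 and 41.9 CPM (not called).

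The receptor lists held both rises and falls. Of 18 tested receptor tyrosine kinases 7 rose and 9 fell (median −0.18; 7 and 8 without K148Q replicate 3). KIT, the receptor of stem cell factor, rose from 32.4 to 75.8 CPM (1.22, adjusted p = 9.2e-06), CSF1R, the receptor of macrophage colony-stimulating factor, from 40.5 to 68.7 CPM (0.76) and EPHB6 from 15.96 to 24.9 CPM (0.64). Beside RET, falls were seen for EPHB3 (23.3 to 2.85 CPM, −3.03), EPHB4 (12.2 to 3.67 CPM, −1.73) and AXL, which binds the phosphatidylserine bridge GAS6 (6.26 to 1.4003 CPM, −2.17). Of 24 cytokine receptors 9 rose and 5 fell (median 0.10; 10 and 9 without K148Q replicate 3, where the median was 0.00). IL1RAP, the shared chain of interleukin-1 receptors, was at 98.7, 102 and 101 CPM in parental and 284, 270.1 and 391 CPM in K148Q libraries (1.65, adjusted p = 1.7e-05), with replicate 3 well above the others. IL6R rose from 61.9 to 144 CPM (1.22) while its signalling chain IL6ST fell from 17.5 to 10.8 CPM (−0.69). Both chains of the interferon gamma receptor fell, IFNGR1 from 56.9 to 38.99 CPM (−0.54) and IFNGR2 from 93.3 to 66.1 CPM (−0.497). TNFRSF1A rose from 105 to 157 CPM and IL2RG from 5.29 to 12.6 CPM.

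Among 15 tested chemokines and their receptors 6 rose and 7 fell (median −0.21; 6 and 8 without K148Q replicate 3, where the median was 0.01). CCL5 rose with CCL2, from 27.6 to 51.3 CPM, whereas the receptors CCR2 (294 to 229.8 CPM, −0.36), CCR1 (134 to 102 CPM) and CXCR4 (138 to 119 CPM) fell, as did the neutrophil attractant CXCL8 (5.48 to 2.34 CPM). Of 22 integrin chains 10 rose and 7 fell (median 0.32; 12 and 8 without K148Q replicate 3). The fibronectin receptor chain ITGA5 rose from 249 to 434 CPM, the laminin receptor chain ITGA6 from 10.8 to 32.8 CPM and ITGAV from 6.91 to 16.3 CPM. ITGA4, which pairs to bind VCAM1, fell from 285 to 192 CPM, ITGA7 from 52.1 to 20.4 CPM, ITGAX from 12.5 to 4.49 CPM and the platelet chain ITGA2B from 7.05 to 0.511 CPM (−3.77).

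Of 25 tested surface proteins studied as leukaemia targets 14 rose and 6 fell (median 0.23; 14 and 7 without K148Q replicate 3). CD33, a sialic acid binding receptor of myeloid cells, rose from 98.98 to 174 CPM (0.81), the T cell and monocyte coreceptor CD4 from 227 to 382 CPM (0.75) and the collagen receptor LAIR1 from 209 to 444 CPM (1.09). CD70, the ligand of CD27, fell from 81.7 to 8.601 CPM (−3.25, adjusted p = 1.2e-07), the hyaluronan receptor CD44 from 431 to 319 CPM (−0.43) and LILRB4 from 179 to 138 CPM (−0.38). IL3RA, the interleukin-3 receptor chain, was at 66.7 and 60.7 CPM and was not called. CD36, a scavenger and fatty acid receptor, rose from 15.01 ± 0.604 to 76.2 ± 20.8 CPM (2.35), replicate 3 being the highest of the K148Q libraries at 100.1 CPM.

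Of 18 tested Fc receptor and ITAM signalling genes 10 rose and 4 fell (median 0.61; 12 and 4 without K148Q replicate 3, 2 lower without parental replicate 1 or 2). The adaptor TYROBP rose from 79.6 to 158 CPM (0.99), its partner receptor TREM2 from 1.89 to 8.95 CPM, and the kinases SYK from 138 to 254 CPM (0.88) and FGR from 41.1 to 77.1 CPM. The other signalling adaptor, FCER1G, fell from 45.9 to 19.4 CPM (−1.24, adjusted p = 1.3e-06). Of 16 Toll-like receptor genes 6 rose and 5 fell (median 0.10; 6 and 6 without K148Q replicate 3). TLR4, the lipopolysaccharide receptor, rose from 9.46 to 23.6 CPM (1.32) and its adaptor TIRAP from 0.2497 to 5.99 CPM (4.505), while TLR9, a DNA sensor, fell from 5.72 to 0.20002 CPM (−4.79). Of 7 phagocyte NADPH oxidase genes 5 rose and 1 fell (median 0.45; 5 and 1 without K148Q replicate 3), with CYBA at 303 to 433 CPM, NCF4 at 185 to 253 CPM and RAC2 at 359 to 459 CPM, and RAC1 falling from 247 to 210.1 CPM.

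Calcium-binding S100 proteins and annexins gave 8 rises and 2 falls among 15 tested members (median 0.35; 10 and 2 without K148Q replicate 3, 1 lower without parental replicate 1, 2 or 3 or K148Q replicate 2). S100A9, a chain of calprotectin, rose from 0.145 to 7.34 CPM (5.54, adjusted p = 7.2e-07). Its partner S100A8 had 1 count over the parental group and 140 over the K148Q group, a ratio of 145 with a 95% interval of 25.6 to 5759 that covers counting error only. Both remained at low levels for proteins that fill the cytoplasm of mature neutrophils. ANXA5 rose from 26.4 to 63.4 CPM and ANXA1 from 1.99 to 6.27 CPM, and ANXA2 fell from 213 to 113 CPM (−0.91). Of 24 tested complement and coagulation genes 15 rose and 7 fell (median 0.62; 15 and 9 without K148Q replicate 3). CFD, complement factor D and a neighbour of ELANE, rose from 114 to 365 CPM (1.68), CFP, properdin, from 36.4 to 84.5 CPM and SERPINB1, an inhibitor of granule proteases, from 73.1 to 159.6 CPM. C3 fell from 16.1 to 3.21 CPM (−2.33), the urokinase receptor PLAUR from 81.7 to 42.6 CPM and the thrombin receptor F2R from 30.4 to 16.3 CPM. The lysosomal glycoprotein CD68 of macrophages, a marker gene, went from 176 to 317 CPM and LYZ, which encodes lysozyme, from 162 to 500.1 CPM (1.63), both higher.

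Sterol and fatty acid genes rose in most members. Cells short of sterol release SREBF2 from the endoplasmic reticulum through SCAP, and it switches on genes of cholesterol synthesis and uptake; INSIG1 holds it back, and SREBF1 acts more on fatty acids. Of 23 tested genes of cholesterol synthesis 17 rose and 1 fell (median 0.90; 17 and 2 without K148Q replicate 3). SREBF2 was at 141, 152 and 142 CPM in parental and 359, 364 and 312 CPM in K148Q libraries (1.25, adjusted p = 1.2e-06), and INSIG1 at 63.7, 70.03 and 71.9 and 195, 195 and 248 CPM (1.64, adjusted p = 2.8e-06). The K148Q values were all above the parental ones, with replicate 3 lowest for SREBF2 and highest for INSIG1. In order along the pathway, MVK, mevalonate kinase, rose from 8.15 to 22.6 CPM (1.47), SQLE, squalene epoxidase, from 74.3 to 193 CPM (1.38), LSS, which closes the sterol rings, from 15.5 to 48.7 CPM (1.65), CYP51A1, a demethylase, from 23.7 to 80.8 CPM (1.77) and DHCR7, the last step, from 13.99 to 43.01 CPM (1.62). LBR, a sterol reductase of the nuclear envelope, fell from 250.3 to 174 CPM (−0.52), and EBP was at 65.3 and 66.3 CPM and not called. HMGCS1, an early enzyme of the pathway named after its value was seen, also rose, from 35.02 to 65.6 CPM (0.904).

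Of 23 tested genes of sterol regulation and lipid transport 15 rose and 3 fell (median 0.49; 16 and 6 without K148Q replicate 3, 1 lower without parental replicate 2). VLDLR rose from 27.96 to 67.6 CPM and NPC1, which exports cholesterol from lysosomes and was named after its value was seen, from 28.9 to 47.998 CPM. APOC1, an apolipoprotein, fell from 30.8 to 19.4 CPM. The sterol element TCACNCCAC, or its reverse complement, was in 1.0% of 6986 promoters and, of 16 promoters of this list, in that of SREBF2. Its 150 bases before the start (chr22:41832955-41833104, plus strand) are shown with the element in capitals, 133 bases before the start.
SREBF2: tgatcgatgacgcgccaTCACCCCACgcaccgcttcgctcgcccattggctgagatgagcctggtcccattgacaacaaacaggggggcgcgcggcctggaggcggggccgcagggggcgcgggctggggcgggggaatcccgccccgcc
Of the 13 cholesterol synthesis genes with 1 RefSeq promoter, 0 held these letters, which says only that this window lacks this spelling.

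Of 25 tested genes of fatty acid and phospholipid synthesis 16 rose and 5 fell (median 0.54; 16 and 6 without K148Q replicate 3). SCD, the desaturase that makes oleate, was at 121, 109.7 and 117 CPM in parental and 461, 463 and 478 CPM in K148Q libraries (2.01, adjusted p = 1.5e-08), and FADS1, the delta-5 desaturase, at 69.1, 64.3 and 68.6 and 386, 385 and 384 CPM (2.51, adjusted p = 4.4e-09). The libraries of each group were nearly equal and the groups were well apart. SCD5, the second desaturase of the SCD family, went the other way, from 12.4 to 1.37 CPM (−3.17). ELOVL6, an elongase, rose from 1.65 to 6.67 CPM and the lipase PNPLA3 from 2.88 to 10.5 CPM, and LPIN1, a phosphatidate phosphatase, fell from 18.5 to 10.9 CPM. FASN, fatty acid synthase, and SREBF1, both named after their values were seen, rose from 468 to 721 CPM (0.63) and from 63.04 to 119.97 CPM (0.93).

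**Figure D3:**
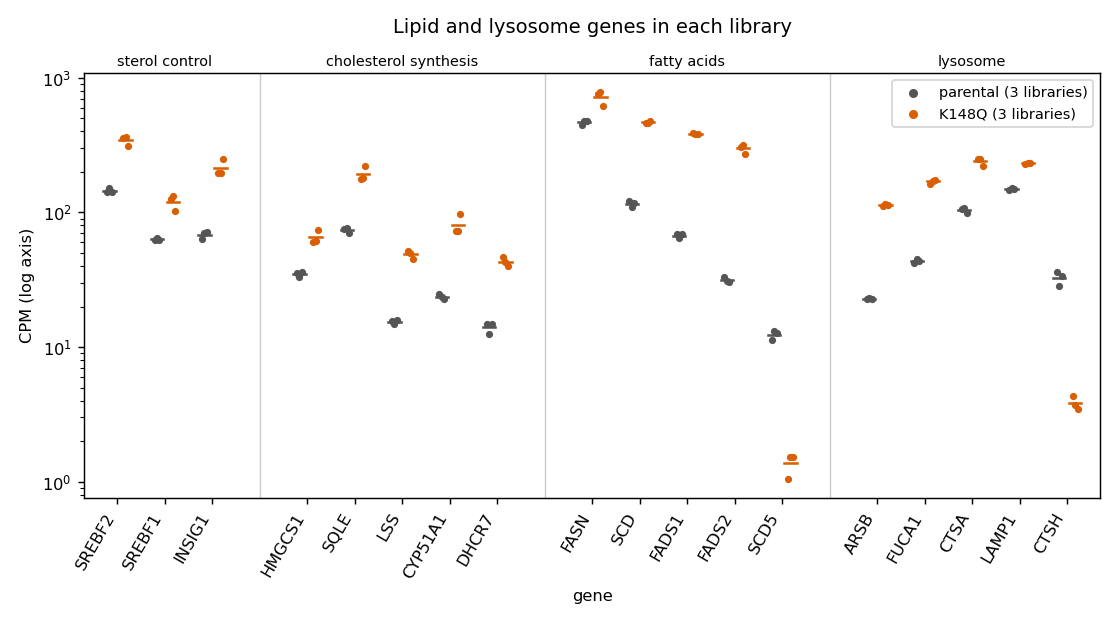
CPM on a log axis (y) of sterol, fatty acid and lysosome genes (x) in each of 3 parental libraries (grey points) and 3 K148Q libraries (orange points); short lines are group means. All genes shown except SCD5 and CTSH are higher in every K148Q library, and the widest rise shown is that of FADS2.

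Lysosomal genes rose in most members. Of 38 tested hydrolases 31 rose and 2 fell (median 0.63; 33 and 4 without K148Q replicate 3). ARSB, which removes sulfate from dermatan and chondroitin sulfate, was at 22.6, 23.1 and 22.8 CPM in parental and 111, 115 and 113 CPM in K148Q libraries (2.304, adjusted p = 1.5e-08). FUCA1, a fucosidase, rose from 43.4 to 169.7 CPM (1.97), CTSA, which protects beta-galactosidase, from 104 to 239.8 CPM (1.199), IDUA from 8.47 to 20.1 CPM (1.25) and CTSW, a cathepsin of cytotoxic cells, from 3.09 to 23.1 CPM (2.91). The members that fell were CTSH, at 36.2, 28.4 and 33.8 and 4.34, 3.73 and 3.46 CPM (−3.09, adjusted p = 3.1e-07), and SGSH, at 7.91 to 1.94 CPM (−2.03). Of 23 tested genes of the proton pump and lysosome regulators 14 rose and 0 fell (median 0.21; 17 and 2 without K148Q replicate 3, 9 higher without parental replicate 1 or K148Q replicate 1 or 2). This list holds ATP6V0E1 but not ATP6V0E2, the pump subunit given above that fell. LAMP1, a membrane protein, rose from 149.4 to 232 CPM (0.64), the pump accessory subunit ATP6AP1 from 89.6 to 152 CPM (0.76) and ATP6V0D1 from 93.8 to 143 CPM (0.61). LAMP2 was at 285 and 268 CPM and not called, though it was called lower without K148Q replicate 3 (−0.30), and TFEB, a regulator of lysosomal genes named after its value was seen, was at 17.8 and 20.4 CPM and not called.

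Glycolysis genes moved in both directions. Of 33 tested genes 12 rose and 14 fell (median −0.07; 13 and 16 without K148Q replicate 3). PGD, of the pentose phosphate branch, rose from 334 to 698 CPM (1.06), the liver type phosphofructokinase PFKL from 260.004 to 356 CPM (0.46) and the hexokinase HK3 from 2.99 to 10.9 CPM (1.87). The platelet type PFKP fell from 199.99 to 125 CPM (−0.68), HK1 from 93.4 to 55.5 CPM (−0.75), the glucose carrier SLC2A3 from 25.8 to 7.03 CPM (−1.88) and ENO2 from 13.9 to 3.74 CPM (−1.89). Within the hexokinase and phosphofructokinase families the isoforms thus moved in opposite directions. GAPDH, at 3505 and 3333 CPM, was not called.

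Stress and protein folding lists held rises and falls, beside 28% higher and 24.4% lower over all tested genes. Calls in the integrated stress response and chaperone lists were about as frequent as that background. Of 27 genes of the integrated stress response 10 rose and 4 fell (median 0.08; 11 and 6 without K148Q replicate 3): TRIB3 rose from 11.7 to 22.6 CPM, while ATF5 fell from 94.9 to 51.1 CPM, DDIT4 from 10.5 to 5.897 CPM and ASNS, asparagine synthetase, from 28.4 to 20.5 CPM, and ATF4 was at 223 and 211 CPM and not called. Of 24 genes of the unfolded protein response 13 rose and 3 fell (median 0.21; 15 and 6 without K148Q replicate 3), with P4HB, a disulfide isomerase, at 1635 to 2805 CPM (0.78) and the sensor ERN1 at 6.29 to 12.1 CPM (0.94). Cytosolic and mitochondrial chaperones gave 6 rises and 9 falls of 28 (median −0.02; 10 and 12 without K148Q replicate 3), and the mitochondrial pair HSPD1 and HSPE1, which fold imported proteins together, fell from 1622 to 1139.6 CPM (−0.51) and from 116 to 74.1 CPM (−0.65). Of 21 amino acid carriers 10 rose and 7 fell (median 0.16; 10 and 8 without K148Q replicate 3, where the median was −0.03), including a rise of SLC1A5, the glutamine carrier, from 353 to 481 CPM and a fall of SLC7A5, the leucine carrier, from 288 to 239 CPM. Of 21 NRF2 and iron genes 6 rose and 8 fell (median 0.13; 9 and 8 without K148Q replicate 3, 5 lower without parental replicate 2). The ferritin light chain FTL rose from 3833 to 5928 CPM (0.63) and the heavy chain FTH1 fell from 961 to 654 CPM (−0.56), both with processed copies elsewhere that may share reads. NFE2L2, which encodes NRF2, rose from 113 to 181 CPM, and its target NQO1 fell from 88.7 to 51.3 CPM.

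Chromatin lists moved in both directions, with few changes of 2-fold. Apart from the polycomb list, calls were about as frequent as over all tested genes (52.4%; 28% higher and 24.4% lower). Of 32 acetyltransferase and adaptor genes 13 rose and 5 fell (median 0.13; 17 and 9 without K148Q replicate 3, 3 lower without parental replicate 2). CREBBP, an acetyltransferase that acts on histones and on MYC, rose from 45.5 to 69.7 CPM (0.62), NCOA1 from 17.05 to 34.6 CPM (1.02) and TADA2B, an adaptor in the SAGA complex, from 25.4 to 51.99 CPM (1.03), while NCOA3 fell from 68.7 to 48.9 CPM (−0.49). Of 26 deacetylase and corepressor genes 8 rose and 5 fell (median 0.08; 12 and 6 without K148Q replicate 3, 5 higher without parental replicate 1 or K148Q replicate 2, 4 higher without K148Q replicate 1, 3 lower without parental replicate 3), HDAC1 falling from 311 to 271 CPM (−0.198), HDAC2 from 265 to 212 CPM (−0.32) and MTA3 from 9.49 to 3.56 CPM (−1.41). Of 25 BET and elongation genes 8 rose and 6 fell (median 0.10; 12 and 9 without K148Q replicate 3, 5 higher without K148Q replicate 1 or 2, 3 lower without parental replicate 1 or 2). ELL2, an elongation factor, rose from 8.76 to 18.003 CPM (1.04), and HEXIM2, an inhibitor of P-TEFb, fell from 6.58 to 2.59 CPM (−1.34). Of 36 polycomb and DNA methylation genes 12 rose and 16 fell (median −0.09; 13 and 18 without K148Q replicate 3, 7 higher without parental replicate 1 or 2), where TET2 rose from 19.1 to 35.6 CPM (0.899) and DNMT3A fell from 40.1 to 29.4 CPM (−0.45), both being genes often mutated in myeloid disease.

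Lists of protein and RNA production had medians near 0, but the summed levels of some were lower. The translation factors summed to 40231 to 40686 CPM in parental and 33652 to 33996.5 CPM in K148Q libraries. For the proteasome list the sums were 7315 to 7399 and 6742 to 6940 CPM. Sums of the synthetase and mitochondrial ribosome lists were slightly lower without overlap, and the splicing sums overlapped. Of 43 translation factors 13 rose and 14 fell (median −0.05; 15 and 21 without K148Q replicate 3, 8 higher without any 1 of the other 5 libraries): EIF4G1, the initiation scaffold, rose from 655 to 996 CPM (0.604), and EEF2, an elongation factor, fell from 6291 to 4378 CPM (−0.52), with EIF4B at 1000.4 to 639.6 CPM (−0.65) and EIF3E at 1171 to 726 CPM (−0.69). Of 37 tRNA synthetases 3 rose and 7 fell (median −0.02, 9 and 11 without K148Q replicate 3). Both directions together were a smaller share than the background of 52.4%. Of 77 mitochondrial ribosomal proteins 13 rose and 12 fell (median −0.01; 25 and 27 without K148Q replicate 3, where the median was 0.00, 5 to 8 higher without any 1 of the other 5 libraries, 7 lower without parental replicate 1, 5 lower without parental replicate 2). Proteasome subunits leaned down, 16 of 42 lower and 3 higher (median −0.06; 10 and 22 without K148Q replicate 3, 1 higher without K148Q replicate 1), the largest fall being PSMB9, the immunoproteasome subunit, from 18.6 to 9.87 CPM (−0.91), and PSMA6 falling from 328 to 219 CPM (−0.58). Of 62 splicing factors 10 rose and 18 fell (median −0.01; 14 and 29 without K148Q replicate 3, 5 to 6 higher without any 1 of the other 5 libraries), with PRPF8, the core of the spliceosome, at 1007 to 1269 CPM and HNRNPC at 1263 to 902 CPM.

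**Figure D4:**
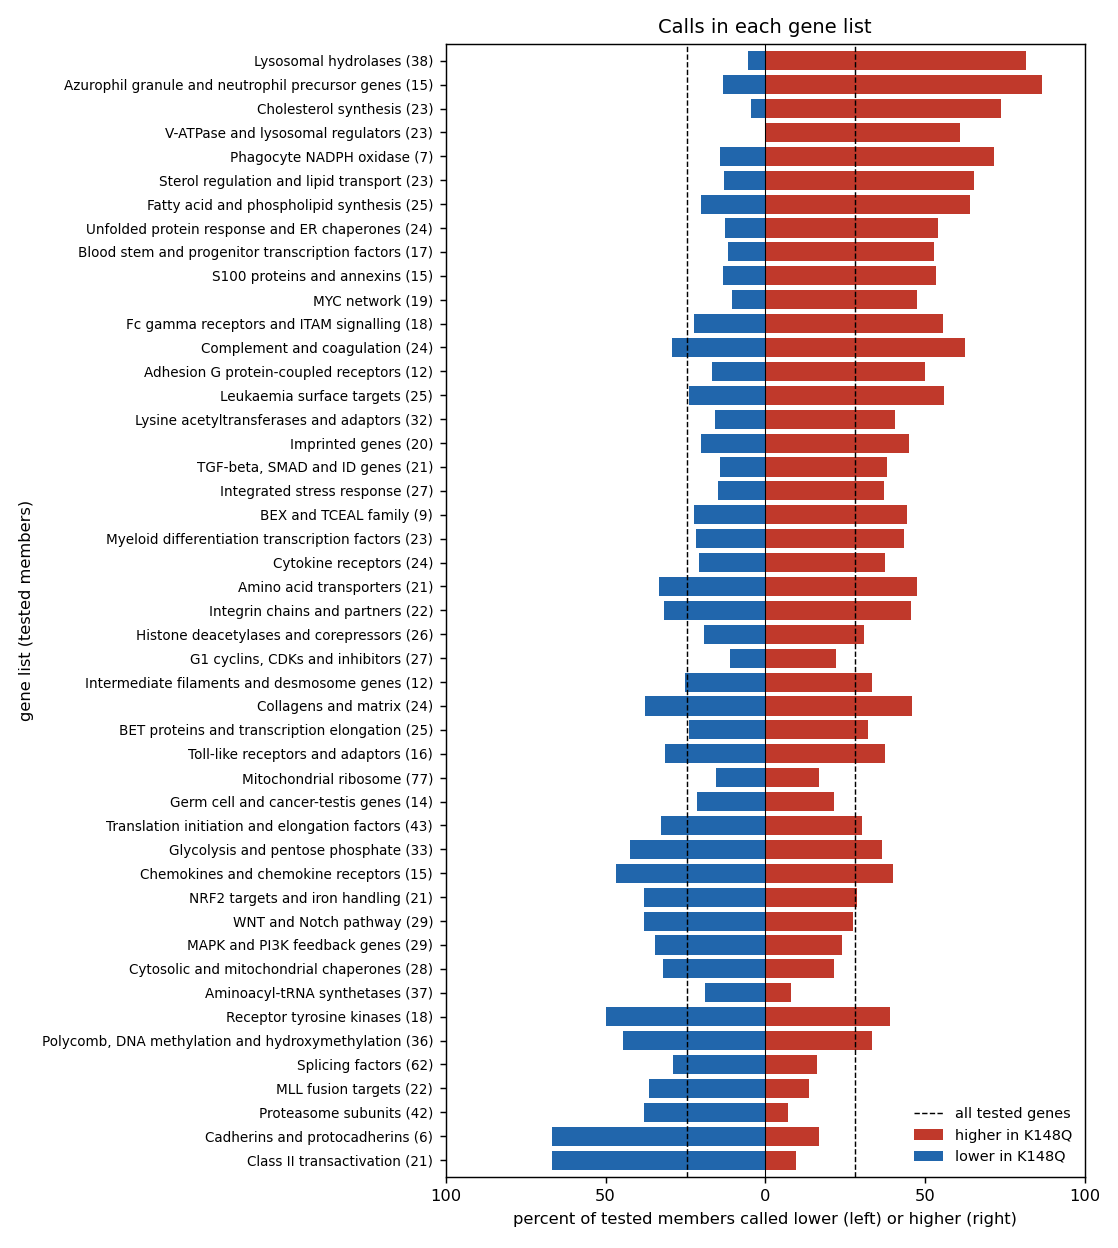
Percent of tested members called higher (red, to the right) or lower (blue, to the left) in K148Q cells for each gene list (y axis, tested members in brackets), in order of the difference between the shares. Dashed lines mark all tested genes, 28% higher and 24.4% lower; granule, lysosome and cholesterol lists extend furthest to the right and class II presentation furthest to the left of the larger lists.

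Growth signalling lists also moved in both directions, beside 28% higher and 24.4% lower over all tested genes. In the 21 tested TGF-beta and ID genes 8 rose and 3 fell (median 0.07; 8 and 7 without K148Q replicate 3, 1 lower without parental replicate 2 or 3 or K148Q replicate 2). Of 29 WNT and Notch genes 8 rose and 11 fell (median −0.01; 10 and 11 without K148Q replicate 3): NOTCH2 rose from 191 to 343 CPM (0.84), NOTCH1 from 128 to 199.99 CPM (0.65) and the ligand JAG2 from 12.5 to 29.5 CPM (1.23). The falls included DTX4, given above, and its relative DTX2, from 25.5 to 17.4 CPM (−0.55); 6 members fell and 3 rose at least 2-fold. Of 29 feedback genes of the MAPK and PI3K pathways 7 rose and 10 fell (median −0.00; 9 and 12 without K148Q replicate 3). SPRY2, an inhibitor induced by receptor signalling, rose from 2.51 to 16.3 CPM (2.69) and DUSP6, an ERK phosphatase, from 35.1 to 85.6 CPM (1.29); cyclin D1, CCND1, fell from 25.2 to 10.1 CPM (−1.32). Of 27 genes of G1 control 6 rose and 3 fell (median 0.09; 12 and 6 without K148Q replicate 3), CDKN2C, an inhibitor of CDK4 and CDK6, rising from 39.3 to 73.9 CPM (0.91) and CCND2 falling from 66.6 to 34.7 CPM (−0.94). Together these G1 calls were a smaller share than the 52.4% called over all tested genes.

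Genes outside the usual blood programs were switched in both directions. Of 24 collagen and matrix genes 11 rose and 9 fell (median 0.24; 13 and 9 without K148Q replicate 3): COL18A1 rose from 32.97 to 128 CPM (1.95), HSPG2, perlecan, from 88.6 to 212 CPM (1.26) and MMP2, a gelatinase, from 33.4 to 86.3 CPM (1.37), and COL6A2 fell from 6.601 to 0.0904 CPM (−6.095). Of 12 tested intermediate filament and desmosome genes 4 rose and 3 fell (median 0.10; 6 and 3 without K148Q replicate 3). The keratin pair KRT8 and KRT18, which form filaments together in simple epithelia, fell together: KRT18 was at 17.2, 14.95 and 16.97 CPM in parental and 0.0658, 0.345 and 0.192 CPM in K148Q libraries (−6.31) and KRT8 went from 11.4 to 0.893 CPM (−3.64). LMNA, the nuclear lamin, rose from 137 to 359 CPM (1.39). The defining epithelial genes EPCAM and CDH1 had no count in any library, and the fibroblast genes COL1A1, COL1A2, DCN and LUM were under 1 CPM in both groups.

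Of 9 tested genes of the BEX and TCEAL family on the X chromosome 4 rose and 2 fell (median 0.24; 4 and 3 without K148Q replicate 3), with NGFRAP1, also called BEX3, at 42.1 to 79.9 CPM (0.92), NXF3 at 27.3 to 67.97 CPM (1.32) and ARMCX6 falling from 9.096 to 1.56 CPM (−2.55). Of 14 tested germ cell genes 3 rose and 3 fell (median −0.33; 3 and 8 without K148Q replicate 3, 5 lower without parental replicate 1): TEX15 rose from 8.56 to 29.4 CPM (1.78) while TEX19 and MEIOB (11.5 to 2.49 CPM, −2.204) fell. Of 20 imprinted genes 9 rose and 4 fell (median 0.03; 9 and 5 without K148Q replicate 3, 2 lower without parental replicate 2 or 3), with rises of GRB10 from 14.2 to 54.9 CPM (1.95), NDN from 4.77 to 21.7 CPM (2.19) and MEST from 23.2 to 38.8 CPM (0.75). Adhesion receptors gave 6 rises and 2 falls of 12 (median 0.12; 7 and 2 without K148Q replicate 3, 1 lower without any 1 of the other 5 libraries), and cadherins 1 and 4 of 6 (median −0.45; 1 and 4 without K148Q replicate 3, 2 higher without parental replicate 1, 2 or 3 or K148Q replicate 2, 2 lower without parental replicate 1 or 3).

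Changes were also read along the chromosomes, in windows of 15 tested genes in a row. Over 11732 windows the central 95% of median log2 fold changes ran from −0.36 to 0.32. The lowest window was chr19:20167228-23250390, from ZNF486 to ZNF724P, with a median of −1.04 and 14 of 15 genes lower. In this cluster of zinc finger repressors ZNF43 fell from 58.8 to 14.3 CPM (−2.03), ZNF493 from 16.3 to 3.08 CPM (−2.39) and ZNF486 from 30.9 to 8.22 CPM (−1.91). The median was −1.28 without K148Q replicate 3 and −0.86 with an offset for GC content and length. The next was chr19:52555457-53392217, from ZNF701 to ZNF525, at −0.87 with 12 genes lower, where ZNF347 fell from 4.08 to 0.373 CPM (−3.42). The third was chr7:149764182-151014588, from ZNF467 to NOS3, at −0.78 with 12 lower and 1 higher. It holds the GIMAP genes of lymphoid cells, of which GIMAP8 fell from 26.2 to 13.1 CPM (−1.001) and GIMAP6 from 18.7 to 10.9 CPM (−0.78), and endothelial nitric oxide synthase, NOS3, which fell from 6.14 to 0.707 CPM (−3.11).

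Zinc finger genes, taken by their symbols after the windows had been seen, leaned down on chromosome 19 and, by less, among those not placed on it. Of 471 tested, 224 were lower (47.6%) and 58 higher, with a median log2 fold change of −0.28. On chromosome 19, 133 of 212 were lower (62.7%, median −0.42), against 24.4% of all tested genes. Of those not placed on chromosome 19, 91 of 259 were lower (35.1%, median −0.15). The latter set may include symbols without a position. The remaining 759 tested genes of chromosome 19 had 197 lower (26.0%) and 242 higher, with a median of 0.05 that became −0.06 with the GC and length offset. Many of these genes are near copies of each other, so reads may be split between them by the authors' counting. Their median levels were 16.2 and 12.8 CPM.

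The highest windows were chr19:507497-863630 (median 0.56, 11 higher and 2 lower), chr17:212389-1492812 (0.55, 12 higher and 0 lower) and chr15:51056598-55319113 (0.54, 8 higher and 1 lower). The first runs from TPGS1 to CFD and holds the protease genes AZU1, PRTN3 and ELANE side by side. Within it BSG, basigin, rose from 768 to 1093 CPM (0.51), PRSS57, another serine protease of granules, from 204 to 340.2 CPM (0.74) and the channel HCN2 from 2.801 to 9.51 CPM (1.74), while PALM and FSTL3 (7.96 to 5.55 CPM) fell. On chromosome 17, NXN, nucleoredoxin, rose from 1.86 to 11.7 CPM (2.63) and MYO1C, a myosin, from 73.7 to 122 CPM (0.72). On chromosome 15 the window holds BCL2L10 beside DMXL2, a proton pump regulator (51.96 to 115 CPM, 1.15), and RAB27A, a GTPase of granule release (109 to 190.3 CPM, 0.81).

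**Figure D5:**
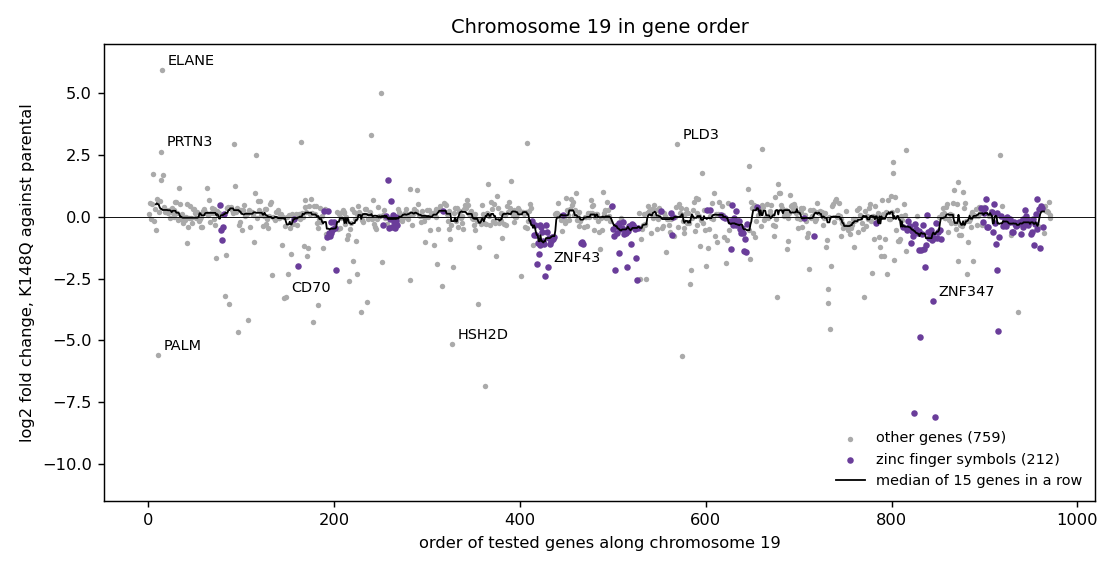
Log2 fold change of K148Q against parental cells (y axis) for the 971 tested genes of chromosome 19 in their order along it (x axis); purple points are 212 genes with zinc finger symbols, grey points the other 759, and the black line is the median of 15 genes in a row. The line dips at the zinc finger clusters to −1.04 and −0.87 and stands above 0 at the left end, where ELANE and PRTN3 lie.

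The E-box was looked for in the promoters of 6986 tested genes with 1 RefSeq promoter, as CACGTG on either strand from 250 bases before to 50 after the start. It was in 10.7% of all of them, in 11.0% of those called higher, 9.52% of those called lower and 11.2% of those not called. Among genes changed at least 2-fold it was in 15 of 283 that rose (5.30%) and 27 of 378 that fell (7.14%). E-box promoters were thus about equally frequent among higher, lower and uncalled genes and less frequent, as a description with no test, among the largest changes.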

How the data were processed

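The authors deposited 1 table of raw counts per gene symbol for 9 MV4;11 libraries, of which the 3 parental and 3 K148Q columns were used. Per the submitters' processing notes, FastQC 0.11.7, HISAT2 2.0.5 and featureCounts 1.5.2 were used with GRCh38; not given in the sources used here are the gene annotation, the strand setting and the options. Without a stated strand, reads of overlapping genes on opposite strands cannot be told apart, and near-identical genes may share or lose reads.

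Of 26485 symbols, 9345 had no count in the 6 libraries. Genes passing filterByExpr (12325) were fitted in edgeR 4.0.16 (R 4.3.3) with TMM scaling, the robust quasi-likelihood F test and genotype as the only term, and called at a Benjamini-Hochberg adjusted p under 0.05. The common biological coefficient of variation was 0.0817. CPM values use the TMM library sizes; 3 counts over a group correspond to 0.0640 CPM in parental and 0.0662 CPM in K148Q cells and served as the floor where a group had no count. The test was checked on counts simulated for this comparison, with few changed genes and independent libraries. The simulation held no shift like that of K148Q replicate 3, so it does not check error rates under such a shift. Members and gene lists were chosen with earlier results of these data known, so a list's count is a description. Genes were named by rule: the 12 largest rises and falls among called genes of at least 10 CPM, the 10 largest of each among genes of at least 200 CPM, genes at 0 in 1 group with at least 5 CPM in the other, and from each list up to 5 called members in each direction and up to 2 uncalled ones; transcription factors, receptors and the MYC network could be named in full, exceptions are stated, and a few such genes are left out of the text.

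Positions are from GENCODE on GRCh38 by symbol (23850 matched, 735 through a synonym, 1900 not placed), and promoters from RefSeq on GRCh38.p14. Replicate numbers did not pair the libraries (correlations of deviations 0.006, 0.028 and 0.058). Alternatives covered scaling, filters, a replicate block, a GC content and length offset, each library left out, limma-voom (limma 3.58.1), DESeq2 1.42.0 and all 9 libraries in the fit. Intervals and floors cover counting error only.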

Additional observations from a re-analysis of the deposited data

How the results depend on the processing

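MYC stayed higher and called in K148Q cells under every alternative run. The number of called genes was 6848 with all 9 libraries in the fit, 6502 and 6496 with RLE and upper quartile scaling, 6655 without a filter on low counts, 6526 with limma-voom and 5899 with DESeq2. Every call shared with these fits kept its direction. Leaving out 1 library gave 5102 to 9029 calls in all, 2353 to 4546 of them lower; the lowest total came without parental replicate 3 and the highest without K148Q replicate 3. A filter at 10 CPM left 500 genes changed at least 2-fold, because it tests 9199 genes and removes those of low level. Of these genes 251 were higher and 249 lower, so the excess of falls at this size was absent under that filter. With the replicate block 6438 genes were called, 6119 of them shared, so the block moved the count little. In the labels the libraries share only a number, and with 3 pairs not every library correlated best with its own number. The GC content and length offset raised the number of calls to 7619, with 5911 shared, and to 7678 together with the replicate block. Under that offset 6 list medians changed sign, none of them above 0.12 in size. Larger medians changed sign under other settings. The filter at 10 CPM changed 2, those of the receptor tyrosine kinases and polycomb lists, up to 0.18 in size in the main fit. Leaving out K148Q replicate 3 changed 3, up to 0.21. Upper quartile scaling changed the sign of 1, that of the imprinted genes, and lowered the share of calls that were higher from 53.5% to 43.9%. Genes under a few counts cannot be ranked by size at this depth, and a fold change against a group at 0 is a lower bound.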

Other observations

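Marker lists of other cell types had few tested members. Of the erythroid markers, 2 of 13 were tested, with a summed level of 20.1 to 20.5 CPM in parental and 17.4 to 21.5 CPM in K148Q libraries; nearly all of it was the erythropoietin receptor EPOR (19.04 and 19.6 CPM, not called). The other tested marker, the erythroid factor KLF1, fell from 1.07 to 0.181 CPM (−2.57), and the globin genes HBA2, HBB and HBG1 were at or near 0. The NFE2 rise came with no rise of globin counts. The megakaryocyte markers came down to ITGA2B, and PF4 and PPBP had no count in any library. The T and NK cell markers came down to NKG7, a granule membrane protein, which fell from 52.7 to 26.4 CPM, while CD3D, CD3E and LCK had no count. Of 4 tested dendritic cell markers 1 rose, the lectin CLEC10A (20.3 to 29.01 CPM), and 1 fell, BATF3. PECAM1, an endothelial and leukocyte adhesion protein, rose from 99.6 to 221 CPM.

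In windows of 25 tested genes the third lowest median, −0.75, lay at chr6:32128707-33087201, from FKBPL to HLA-DPB1, with 17 genes lower and 3 higher; this is the class II region. The widest window medians on the positive side were 0.52 at chr9:135499984-136848801 and 0.49 at chr17:212389-1738599.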
